A study of Mus musculus with 4 samples.

Results

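The genes of the AP-1 transcription factors, Fos, Fosb, Fosl1, Fosl2, Jun, Junb and Jund, and the DNA motifs named after their proteins were followed in the open chromatin of sorted nuclei from mouse cortex and hippocampus. The 7 genes were taken by name from 21911 protein-coding genes, and each was measured by the cut sites in a library's peaks that overlapped its gene body or lay within 50 kb on either side of it, a stretch called its window here (build GRCm38). The motifs were the 29 of 579 in the deposited motif tables whose name began with FOS or JUN, and each was measured as its share of all motif counts of a library or group of nuclei. The study profiled nuclei from P30 mice by single-nucleus ATAC-seq, a droplet assay in which the Tn5 transposase cuts accessible DNA, with 2 libraries of cortex and 2 of hippocampus. All 4 libraries carried the same genotype, Dlx6aCre;Sun1/sfGFP, in which a Cre active in the lineage of forebrain inhibitory neurons switches on a GFP tag of the nuclear envelope, and nuclei positive for GFP and DAPI were sorted. The labels name no separate animals for the libraries of a tissue, so p-values here measure only the spread between these libraries, which may be technical.

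AP-1 is a dimer of basic leucine zipper proteins. Fos family proteins need a Jun family partner to bind DNA, whereas Jun family proteins also pair with each other, and the dimers recognise the TPA response element (TRE, TGAGTCA) and the cyclic AMP response element (CRE), which has a wider spacing between the same arms. In neurons Fos, Fosb, Junb and Jun respond to firing within minutes as immediate early genes, and Jund is expressed more steadily.

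Levels are given as CPM, cut sites scaled to a common total of the library's or group's cut sites in peaks. The libraries differed in depth and in how much was called as a peak, which bears on every level below. Cortex library 1 held 2355 nuclei with a median of 47236 cut sites in peaks per nucleus, cortex library 2 held 4191 nuclei with 7352, hippocampus library 1 held 5576 nuclei with 12685.5, and hippocampus library 2 held 3184 nuclei with 14917. Cortex 1 therefore stood apart as the deepest library, and cortex 2 as the shallowest and the one with the fewest peaks (61965, covering 33.4 Mb, against 98419 to 157220 peaks in the others). Between 11 and 47 cell barcodes were shared by any pair of libraries. Nuclei high in marker genes of glial, vascular or excitatory cells made up 5.58% to 6.62% of the cortex libraries and 11.1% to 12.4% of the hippocampus libraries. Their summed cut sites at genes that define inhibitory neurons (Gad1, Gad2, Slc32a1 and 5 others) were 852 to 1194 CPM, against 1187 to 1638 CPM in nuclei with no marker call. In cortex 2 these values were close, at 1146 against 1187 CPM. They lay further apart in cortex 1 (1194 against 1560 CPM), hippocampus 1 (953 against 1448) and hippocampus 2 (852 against 1638).

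Nuclei were also grouped by their cut sites at Pvalb, Sst and Adarb2, the first 2 being genes of interneurons born in the medial ganglionic eminence and Adarb2 a gene of interneurons born in the caudal one. A nucleus was called high in a gene when it held at least 2 times its expected cut sites there, with a Poisson tail under 0.05, and not in the other genes. This gave 269, 245, 293 and 168 Pvalb-high nuclei in cortex 1, cortex 2, hippocampus 1 and hippocampus 2, with 252, 175, 324 and 187 Sst-high and 243, 229, 529 and 270 Adarb2-high nuclei in the same order. Pvalb-high nuclei were 11.4%, 5.85%, 5.25% and 5.28% of their libraries and Sst-high nuclei 10.7%, 4.18%, 5.81% and 5.87%. With a tail of 0.05 such groups may hold nuclei called by chance. Outside cortex 1 the Pvalb and Sst calls rested on few cut sites. Cortex 2 had 614 at Pvalb in its 245 Pvalb-high nuclei and 406 at Sst in its 175 Sst-high nuclei. Lhx6, which marks the medial lineage and was not used in the grouping, was at 105 to 177 CPM in Pvalb-high and Sst-high nuclei of cortex 1 and the hippocampus libraries and at 60.5 to 85.0 CPM in their Adarb2-high nuclei. In cortex 2 Lhx6 was lower in every group, at 54.1 CPM in Pvalb-high, 78.9 CPM in Sst-high and 37.4 CPM in Adarb2-high nuclei. Nuclei with no call were at 146, 52.6, 151 and 110 CPM of Lhx6 in cortex 1, cortex 2, hippocampus 1 and hippocampus 2. Sst-high nuclei lay above these in each library. Pvalb-high nuclei lay below them in hippocampus 2 (105 CPM) and little above them in cortex 2. Prox1, a gene of the caudal lineage, set Pvalb-high apart from Adarb2-high nuclei clearly in cortex 1 alone (27.3 against 112 CPM), and was at 33.3 against 35.0 CPM in cortex 2, 46.7 against 59.1 CPM in hippocampus 1 and 54.9 against 61.2 CPM in hippocampus 2. In Sst-high nuclei it was at 37.1, 19.7, 24.4 and 27.1 CPM, below Adarb2-high nuclei in 4 of 4 libraries.

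The windows of Fos (chr12:85473890-85477273, + strand), Fosl2 (chr5:32135801-32157842, +) and Jun (chr4:95049034-95052222, - strand) held no other protein-coding gene. Those of Fosb (chr7:19302696-19310051, -), Fosl1 (chr19:5447547-5455946, +), Junb (chr8:84974484-84978718, -) and Jund (chr8:70698949-70700616, +) held 7, 11, 9 and 5 others, so their window values are not values of the member alone. In all, 128 merged peak regions lay in the 7 windows, from 7 for Jun to 25 for Fosl1, and 54 of them held a peak of every library. TRE letters were found in 2 of these regions at Fos, 7 at Fosb, 8 at Fosl1, 3 at Fosl2, 2 at Jun, 6 at Junb and 8 at Jund. CRE letters were found in 2 regions, both at Jund.

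Since members of the family can bind at each other's genes, the letters before the gene starts were read first. Of the 7 members, 6 had an entry in the RefSeq promoter table (GRCm38.p6). None of the 6 held a TRE, a CRE or a CArG box, the site of serum response factor, in the 250 bases before the RefSeq start. For Fosl2 that start lies inside the gene as annotated above, and for Jund it lies upstream of it by more than 1 kb. These 2 stretches therefore do not adjoin the starts used for the counts. Within 250 bases before the annotated Jund start stood a full CRE (chr8:70698735-70698742). On either strand a TRE was found in 4.463% of 32851 promoters of this length, a CRE in 1.546% and a CArG box in 1.467%. TGACG, the first letters of a CRE, stood in 17.77% of promoters and occurred at 2 places in that of Fos and at 1 in those of Fosb and Junb, and TGACNTCA, which a CRE also matches, stood in 7.488% and occurred at 1 place in that of Jun. The promoters of Fos (chr12:85473640-85473889, + strand) and Jun (chr4:95052223-95052472, - strand) are shown because they carry these near matches, in capitals, and because no other coding gene shares their windows.

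Fos promoter: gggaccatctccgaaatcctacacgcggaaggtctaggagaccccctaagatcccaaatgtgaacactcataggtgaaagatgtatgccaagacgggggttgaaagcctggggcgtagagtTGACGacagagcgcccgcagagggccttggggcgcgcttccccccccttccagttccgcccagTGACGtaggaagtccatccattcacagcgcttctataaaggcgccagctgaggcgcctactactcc

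Jun promoter: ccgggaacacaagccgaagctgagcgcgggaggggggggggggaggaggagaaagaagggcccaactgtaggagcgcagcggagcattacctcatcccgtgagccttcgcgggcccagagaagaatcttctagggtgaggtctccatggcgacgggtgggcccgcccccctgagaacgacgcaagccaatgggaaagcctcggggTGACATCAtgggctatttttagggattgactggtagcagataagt

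Full TRE letters occurred elsewhere in the peak regions of the windows. Among them were sites just inside the annotated starts of Fosl1 (chr19:5447897-5447903) and Fosl2 (chr5:32135854-32135860). The stretches below are from the genome (GRCm38.p6, + strand), with TRE letters in capitals. They lie in no protein-coding gene and show the site in a region that differed between nucleus groups at Fosl1 (chr19:5459180-5459246), the site in the region that differed between Pvalb-high and Sst-high nuclei at Jund (chr8:70684479-70684545), and a close pair in the region with the most TREs near Junb, which held 4 (chr8:84985627-84985693).

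Fosl1 distal region: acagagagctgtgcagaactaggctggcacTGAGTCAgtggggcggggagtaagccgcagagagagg

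Jund upstream region: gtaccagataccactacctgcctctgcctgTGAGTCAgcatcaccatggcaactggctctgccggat

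Junb upstream region: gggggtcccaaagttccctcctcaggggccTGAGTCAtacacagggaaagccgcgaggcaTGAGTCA

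Window levels ranged more between the libraries of a tissue than the tissues differed, except at Fosl2. Among the Fos family, which needs a Jun partner, the Fos window was at 243 CPM in cortex 1, 347 CPM in cortex 2, 213 CPM in hippocampus 1 and 249.7 CPM in hippocampus 2. Hippocampus 2 lay above cortex 1, so the tissues overlapped. The Fosl2 window was at 127 and 137 CPM in cortex and at 85.1 and 90.6 CPM in hippocampus, and both hippocampus libraries lay below both cortex libraries. Fosb ran from 272 to 389 CPM and Fosl1 from 299 to 375 CPM, each lowest in hippocampus 1 and highest in cortex 2. The Jun family showed the same order of libraries: Jun, whose protein can form homodimers, was at 130 and 171 CPM in cortex and 97.1 and 139.8 CPM in hippocampus, Junb ran from 369 to 584 CPM and Jund from 200.4 to 315 CPM. In each of these 3 genes hippocampus 1 was lowest, cortex 2 was highest, and the tissues overlapped.

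**Figure D1:**
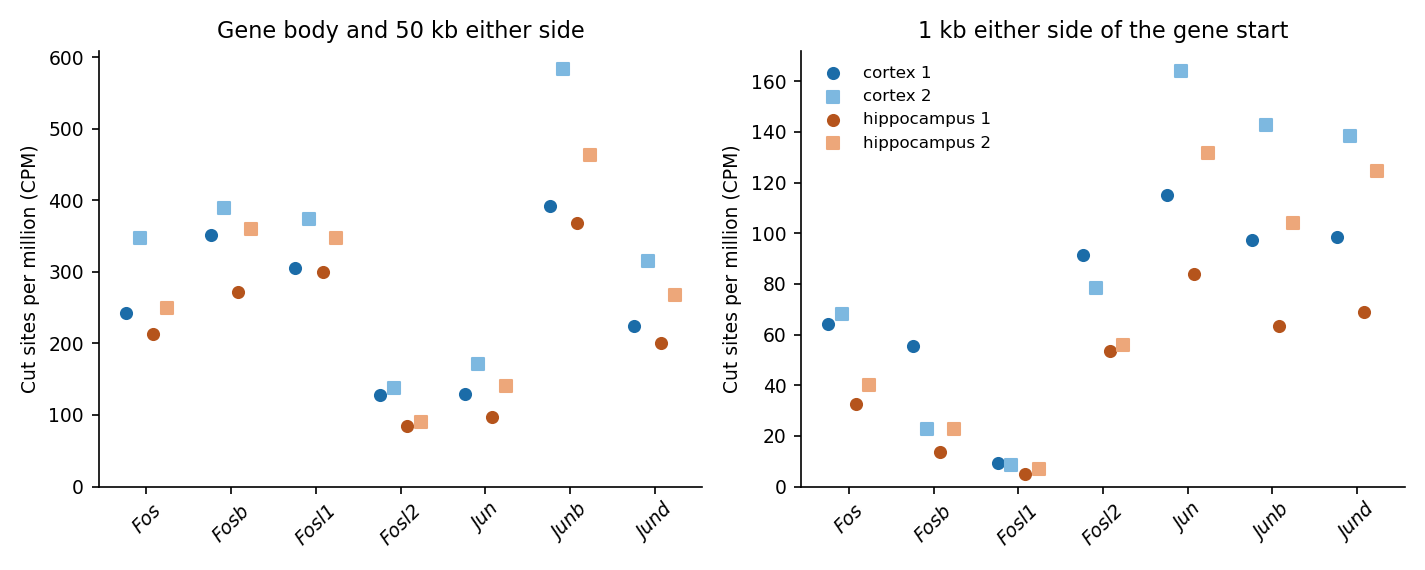
Cut sites in peaks (CPM, both axes from 0) of each member's window (left, gene body and 50 kb on either side) and in peaks that reach within 1 kb of its start, counted whole (right). Each point is a library. In the windows only Fosl2 (85.1 and 90.6 against 127 and 137) has both hippocampus libraries below both cortex libraries, and at the starts the Fos values split likewise (32.6 and 39.9 against 64.2 and 68.0).

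None of the 7 windows passed an adjusted p of 0.05 between hippocampus and cortex in edgeR's quasi-likelihood test, nor did any of 19232 gene windows (0% called; 424 at an unadjusted p under 0.05). The same windows fitted with DESeq2 gave 162 calls (0.842%), with Fosl2 among them. The log2 fold change, hippocampus against cortex, was -0.56 ± 0.16 (SE) for Fosl2 (adjusted p = 1 in edgeR, Benjamini-Hochberg; 0.000214 in DESeq2 and 0.27 to 1 in the other alternatives), -0.30 ± 0.18 for Fos and -0.31 ± 0.18 for Jun. All 7 were below 0, with a median of -0.20 against -0.0099 over all windows, and Fosl1, Junb and Jund turned to values from 0.0048 to 0.032 without cortex 2. Of the 7, only Fosl2 had hippocampus libraries below both cortex libraries, where 10.8% of all windows were lower in this sense and 11.7% higher. Oligodendrocyte-lineage nuclei, more frequent in the hippocampus libraries (7.91% and 9.20% against 3.10% and 1.43%), had a Fosl2 window of 61.3, 105, 46.4 and 39.3 CPM in the order above, lower than their library in each case. Without all nuclei high in other markers the Fosl2 log2 fold change was -0.53.

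At the gene starts the CPM of the tissues split at Fos, Fosl1 and Fosl2, were nearly tied at Fosb and overlapped in the Jun family. Peaks that reached within 1 kb of the start were counted whole, so their width in each library enters these values. They were at 64.2 and 68.0 CPM in cortex and 32.6 and 39.9 CPM in hippocampus for Fos. For Fosl2 they were at 91.5 and 78.4 CPM against 53.6 and 56.1 CPM. For both genes the hippocampus libraries lay together, under the cortex libraries. Fosl1 was at 9.33 and 8.53 against 4.85 and 6.72 CPM, and Fosb at 55.5 and 22.7 against 13.7 and 22.7 CPM. At Fosb cortex 2 and hippocampus 2 differed by less than their counting error, and the cortex 1 value took in the peak of the adjoining region at 1.56 kb as well. The region over the Fosb start itself was at 20.2, 22.7, 13.7 and 22.7 CPM. The starts of Jun (84.1 to 164 CPM), Junb (63.7 to 143 CPM) and Jund (68.8 to 138 CPM) overlapped between tissues. In 4 of 7 starts, all of the Fos family, both hippocampus libraries were below both cortex libraries, against 9.88% of 13518 starts lower and 3.47% higher. This count includes Fosb, where the split is within counting error.

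The fitted log2 fold change at the Fos start was -0.63 ± 0.17 (SE; unadjusted p = 0.011, adjusted p = 1, edgeR quasi-likelihood test), and it lay between -0.75 and -0.52 when each library was left out in turn. That of the Fosl2 start was -0.39 (adjusted p = 1, edgeR), at -0.11 without cortex 1, -0.17 without hippocampus 2 and -0.62 and -0.64 without cortex 2 and hippocampus 1. No start passed in edgeR (0% of 13518, 201 below 0.05 before adjustment). With DESeq2 42 passed (0.311%), the Fos start among them (adjusted p = 0.025, against 0.33 to 1 in the other alternatives). Among single regions with a peak of every library, 0 of 54 near the members and 0% of 46698 in all passed between tissues in edgeR, with 1 member region, at -16.5 kb from Jund, at an unadjusted p under 0.05, while DESeq2 passed 0.754% of all regions and 0 of the member regions. The region over the Fos start (chr12:85471696-85475741) was at 64.2 and 81.2 CPM in cortex and 41.2 and 52.5 CPM in hippocampus. The region with the most cut sites in the Fos window, at -18.4 kb (negative values are upstream), was at 63.1 and 115 against 65.9 and 82.6 CPM, with a log2 fold change of -0.10.

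Between nucleus groups the fitted log2 fold changes of the 7 windows ran from -0.14 to 0.20, and none passed. In Pvalb-high, Sst-high and Adarb2-high nuclei of cortex 1 the Fos window was at 236, 240.2 and 257 CPM, in cortex 2 at 355, 320 and 376 CPM, in hippocampus 1 at 209.8, 210.0 and 210.4 CPM, and in hippocampus 2 at 276, 226 and 249.4 CPM. The 3 groups lay within 1 CPM of each other in hippocampus 1, and no group was highest in all 4 libraries. The Jun window was at 132, 124 and 126 CPM in cortex 1, 169, 191 and 159 CPM in cortex 2, 86.8, 109 and 84.5 CPM in hippocampus 1, and 139, 138 and 117 CPM in hippocampus 2. Sst-high nuclei lay above Adarb2-high nuclei in 3 of 4 libraries, cortex 1 being the exception, and Pvalb-high nuclei in 4 of 4. The windows of Fos, Fosl2, Junb and Jund were at lower values in Sst-high than in Adarb2-high nuclei in 4 of 4 libraries. For Pvalb-high nuclei those of Fos, Fosb, Fosl2, Junb and Jund were each lower in 3 of 4.

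None of the 7 windows passed in any of the 3 comparisons of nucleus groups, made with the library as a block (edgeR quasi-likelihood test, Benjamini-Hochberg over 19245 windows). The background was 13.8% of all windows for Pvalb-high against Adarb2-high, 11% for Sst-high against Adarb2-high and 12.2% for Pvalb-high against Sst-high, and DESeq2 gave no member either. At an unadjusted p under 0.05 the counts were 0, 1 and 0 of 7. The largest difference was Jun, Sst-high against Adarb2-high, with a log2 fold change of 0.20 ± 0.07 (SE, adjusted p = 0.078), which became 0.30 with an adjusted p of 0.028 without cortex 1 and kept an adjusted p of 0.078 to 0.38 in the other alternatives. Members ran from -0.14 to 0.20 in this comparison (median -0.07), from -0.11 to 0.11 for Pvalb-high against Adarb2-high and from -0.09 to 0.09 for Pvalb-high against Sst-high, and Jund passed for Pvalb-high against Adarb2-high without hippocampus 2 (-0.19, adjusted p = 0.043, against 0.20 to 0.74 in the other alternatives). Both comparisons with Adarb2-high nuclei share the same Adarb2-high sums. Differences between groups also did not differ detectably between tissues, with 0 of 7 members and 0.338% of windows past the threshold for the interaction (Jund at an unadjusted p of 0.047).

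Genes that partner with AP-1 or act upstream of it were read in the same fits. Of 34 such genes, 6 were higher in Pvalb-high than in Adarb2-high nuclei and none lower, where 13.8% of all windows passed in either direction, with Elk3, an ETS factor that works with serum response factor, at a log2 fold change of 0.38, Bach1, a leucine zipper repressor, at 0.35 and Dusp1, a phosphatase of MAP kinases, at 0.25. In Sst-high against Adarb2-high nuclei 6 were higher and 1 lower (11% of all windows passed), with Bach1 at 0.47 and Maf at 0.31 among the higher. In Pvalb-high against Sst-high nuclei 5 were higher and 3 lower (12.2% of all windows), with Elk3 at 0.53 and Dusp1 at 0.25 among the higher, and Maf at -0.26 among the lower. The medians over the 34 were 0.036, 0.015 and 0.016, and whether the list differed from the members was not tested. No gene of the list passed between tissues or for the interaction (1 and 4 at an unadjusted p under 0.05, none with DESeq2).

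At the level of single regions a few elements near the members differed between nucleus groups, in a smaller share than over all regions. Of the 54 regions with a peak of every library, 5 differed between Pvalb-high and Adarb2-high nuclei, where 18.7% of 46686 regions passed, 4 differed between Sst-high and Adarb2-high nuclei (19.4%) and 1 between Pvalb-high and Sst-high nuclei (16.7%). The most marked was the intergenic region with the printed TRE at +11.7 kb from the Fosl1 start (chr19:5458994-5459547). In Adarb2-high nuclei it was at 9.24, 7.24, 8.52 and 4.96 CPM, in Sst-high nuclei at 2.65, 1.16, 1.82 and 3.01 CPM and in Pvalb-high nuclei at 1.63, 0.483, 2.11 and 2.95 CPM. Every Adarb2-high value lay above every value of the other groups, but in cortex 2 these values rest on 12, 2 and 1 cut sites. Its log2 fold change against Adarb2-high nuclei was -1.95 for Pvalb-high (adjusted p = 0.000187) and -1.66 for Sst-high nuclei.

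The Fos region at -18.4 kb (chr12:85454776-85456202, no protein-coding gene) was at 74.6, 126, 72.5 and 82.9 CPM in Adarb2-high nuclei, 59.8, 114, 61.8 and 76.4 CPM in Sst-high nuclei and 55.0, 118, 54.5 and 78.1 CPM in Pvalb-high nuclei. Adarb2-high nuclei were highest in each of the 4 libraries. The log2 fold change was -0.31 ± 0.09 (SE, adjusted p = 0.0082, edgeR quasi-likelihood test) for Pvalb-high and -0.25 (adjusted p = 0.034) for Sst-high against Adarb2-high nuclei. Both calls were lost without cortex 1 (adjusted p = 0.23 and 0.34) and without hippocampus 1 (0.13 and 0.18), and with a stricter gate for the nucleus groups (0.076 and 0.52). A smaller region at -5.83 kb went the other way in 3 of 4 libraries for Pvalb-high nuclei, at 16.6, 18.8, 17.5 and 13.6 CPM against 8.63, 20.5, 8.11 and 7.56 CPM (log2 fold change 0.69, adjusted p = 0.035), a call lost without cortex 1, hippocampus 1 or hippocampus 2 (adjusted p = 0.16, 0.20 and 0.066).

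**Figure D2:**
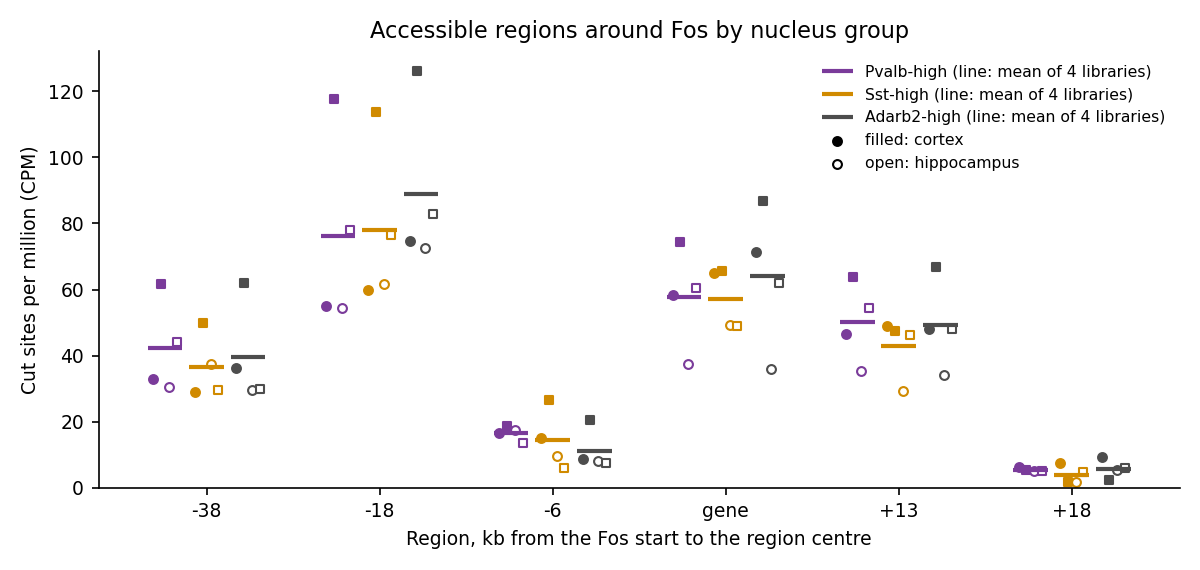
Cut sites in the merged peak regions of the Fos window that hold a peak of every library, in CPM, for Pvalb-high, Sst-high and Adarb2-high nuclei of the 4 libraries, by distance from the Fos start in kb (negative is upstream). In the region at -18.4 kb Adarb2-high nuclei are the highest group in each library, and at -5.83 kb Pvalb-high nuclei lie above Adarb2-high nuclei in 3 of 4.

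The remaining calls were at Junb and Jund and at neighbouring genes. The region over the Junb start was lower in Pvalb-high than in Adarb2-high nuclei in 4 of 4 libraries (log2 fold change -0.23, adjusted p = 0.040, edgeR). At Jund, the region over the start of Pgpep1 was lower in Pvalb-high nuclei (-0.72, adjusted p = 0.026), a coding exon of Iqcn lower in Sst-high nuclei (-1.003, adjusted p = 0.024), and the intergenic region with the printed TRE at -14.4 kb lower in Pvalb-high than in Sst-high nuclei (-0.66, adjusted p = 0.035), at 8.83, 16.4, 6.55 and 16.2 CPM against 17.7, 26.1, 10.1 and 20.2 CPM. At Fosl1, the start of Efemp2 was higher in Sst-high than in Adarb2-high nuclei (0.56). Of these, only the Efemp2 call and the Fosl1 region at +11.7 kb passed with every single library left out. With the stricter gate for nucleus groups 0 member regions passed in either comparison with Adarb2-high nuclei. Over all 35367 regions tested there, 1437 passed for Pvalb-high and 2045 for Sst-high against Adarb2-high nuclei.

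The FOS and JUN motifs differed between nucleus groups where the genes' windows did not pass. By their correlation over nuclei with the share of cut sites in regions that hold TRE or CRE letters, 19 of the 29 followed the TRE, 6 the CRE and 4 were mixed. The correlations of the 19 with the TRE share ran from 0.17 to 0.88. They were taken over nuclei that include the groups compared below, so this split is a description and no independent support. Motifs that share letters share counts: FOSL2::JUNB and FOSL2::JUND had the same count in every nucleus of all 4 libraries, so the 29 are not independent of each other. Summed over the 19 TRE-following motifs, the share of all motif counts was 0.654%, 0.800%, 0.705% and 0.600% in Pvalb-high nuclei, 0.669%, 0.843%, 0.723% and 0.612% in Sst-high nuclei and 0.627%, 0.779%, 0.632% and 0.556% in Adarb2-high nuclei, in the order cortex 1, cortex 2, hippocampus 1 and hippocampus 2. In each library the order was Sst-high, Pvalb-high, Adarb2-high. The level of the library moved the share more than the group did, with cortex 2 highest in every group.

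Of the 29 motifs, 18 were higher in Pvalb-high than in Adarb2-high nuclei and none lower (edgeR quasi-likelihood test), where 34.2% of 579 motifs passed, 19.5% higher and 14.7% lower. In Sst-high against Adarb2-high nuclei 22 were higher and none lower, where 34.7% passed, 17.8% higher and 16.9% lower. Most of these calls were of motifs labelled TRE-following from the same nuclei, with 16 of 19 called in the first comparison (median log2 fold change 0.095) and 19 of 19 in the second (0.14). The CRE-following motifs gave 0 of 6 in both, with medians of 0.0070 and 0.019, 0 at an unadjusted p under 0.05 and 0 in DESeq2, and 2 and 3 of the 4 mixed motifs were called.

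The highest motifs for Pvalb-high against Adarb2-high nuclei were JUND at 0.16 ± 0.05 (SE, adjusted p = 0.031) and FOS at 0.16 ± 0.03 (adjusted p = 0.0039). The FOS motif held 0.0348%, 0.0439%, 0.0333% and 0.0255% of motif counts in Pvalb-high nuclei against 0.0325%, 0.0409%, 0.0282% and 0.0222% in Adarb2-high nuclei, higher in 4 of 4 libraries. For Sst-high against Adarb2-high nuclei FOSL1::JUND and FOSB::JUNB led, each at 0.18 ± 0.02 (adjusted p = 0.000734) and higher in 4 of 4 libraries. The lowest in both comparisons were JUN::JUNB(var.2) and FOSL1::JUND(var.2), between -0.0099 and 0.0036, whose per-library differences took both signs. In Pvalb-high against Sst-high nuclei 7 of 29 were lower, all TRE-following, and none higher (29.2% of all motifs passed, 12.3% lower and 16.9% higher), with FOSL2::JUN and FOSL1::JUND at -0.08 ± 0.02 and lower in 4 of 4 libraries.

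**Figure D3:**
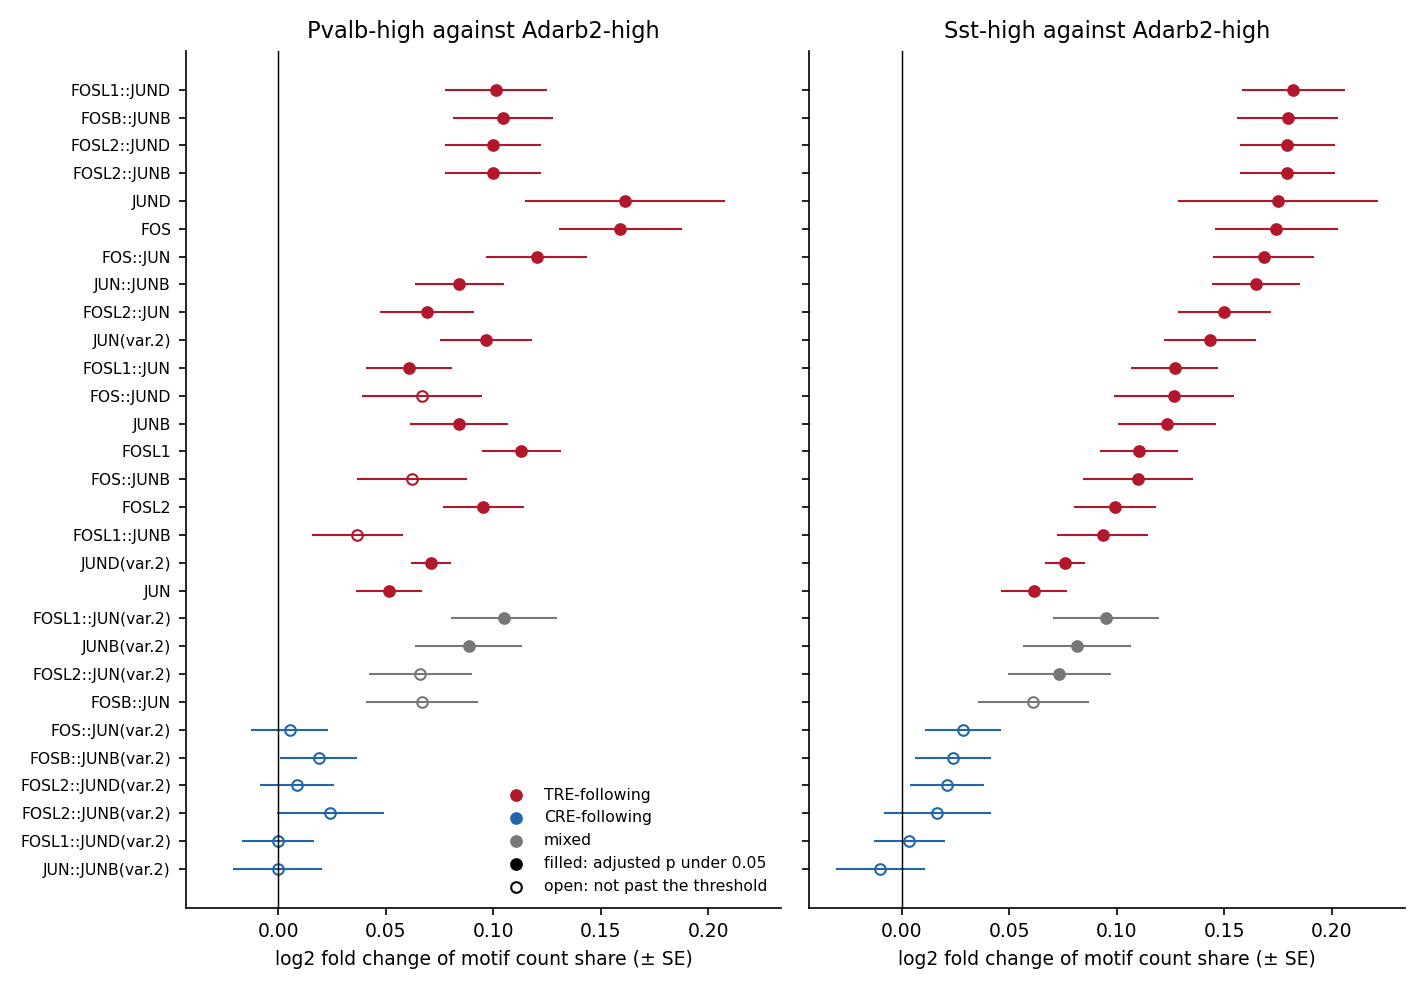
Log2 fold change of the 29 FOS and JUN motifs, as shares of all motif counts, for Pvalb-high and for Sst-high against Adarb2-high nuclei, coloured by whether the motif follows the TRE, the CRE or neither. Bars are standard errors and filled points passed an adjusted p of 0.05 (edgeR quasi-likelihood test); 16 and 19 of the 19 TRE-following motifs are filled in the left and right panel, and none of the 6 CRE-following motifs.

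The number of motifs that passed changed when libraries were left out and when cut sites at the gate genes were subtracted. Whether the calls came from the gate genes was not tested. Left out in turn, the libraries gave 4 to 18 calls for Pvalb-high against Adarb2-high nuclei (9 without hippocampus 1, 4 without hippocampus 2), 14 to 22 for Sst-high against Adarb2-high nuclei and 0 to 9 for Pvalb-high against Sst-high nuclei (0 without cortex 1, cortex 2 or hippocampus 2). Over all 579 motifs the same fits called 109 to 152, 126 to 167 and 46 to 142. The counts of 9 and 4 stood beside 112 and 109 of 579, and the counts of 0 beside 46, 142 and 92. The Pvalb window used for the grouping held 5 regions, 4 of them with a TRE, that of Sst held 3 without one, and that of Adarb2 held 66, 4 of them with a TRE. All cut sites in the Pvalb and Sst windows were then taken off every FOS and JUN motif count of Pvalb-high and Sst-high nuclei, as an upper bound. Nothing was taken off the counts of Adarb2-high nuclei, so the step could only lower the differences from them. After it 4 motifs were higher and 7 lower in Pvalb-high than in Adarb2-high nuclei, and 13 were higher and 2 lower in Sst-high nuclei. All motifs that were higher after this step were TRE-following.

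The letters themselves were therefore counted with the windows of the gate genes left out. TRE letters stood in 25.2% of 46690 regions with a peak of every library, and CRE letters in 2.79%. The share of cut sites in TRE regions was 28.5%, 28.7%, 28.7% and 27.4% in Adarb2-high nuclei, 29.0%, 29.1%, 29.7% and 28.1% in Sst-high nuclei and 29.3%, 29.1%, 30.0% and 28.2% in Pvalb-high nuclei. Adarb2-high nuclei were lowest in each library. The mean difference was 0.829 ± 0.378 percentage points (SD, n = 4 libraries) for Pvalb-high and 0.647 ± 0.262 for Sst-high minus Adarb2-high nuclei, higher in 4 of 4 libraries each, with an exact two-sided permutation p of 0.125, the smallest that 4 libraries allow. Pvalb-high minus Sst-high nuclei gave 0.182 ± 0.167 points, higher in 3 of 4 libraries. The share in CRE regions was -0.067 ± 0.039 points from that of Adarb2-high nuclei in Pvalb-high nuclei, lower in 4 of 4 libraries (exact two-sided permutation p = 0.125), and -0.075 ± 0.083 points in Sst-high nuclei, lower in 3 of 4.

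**Figure D4:**
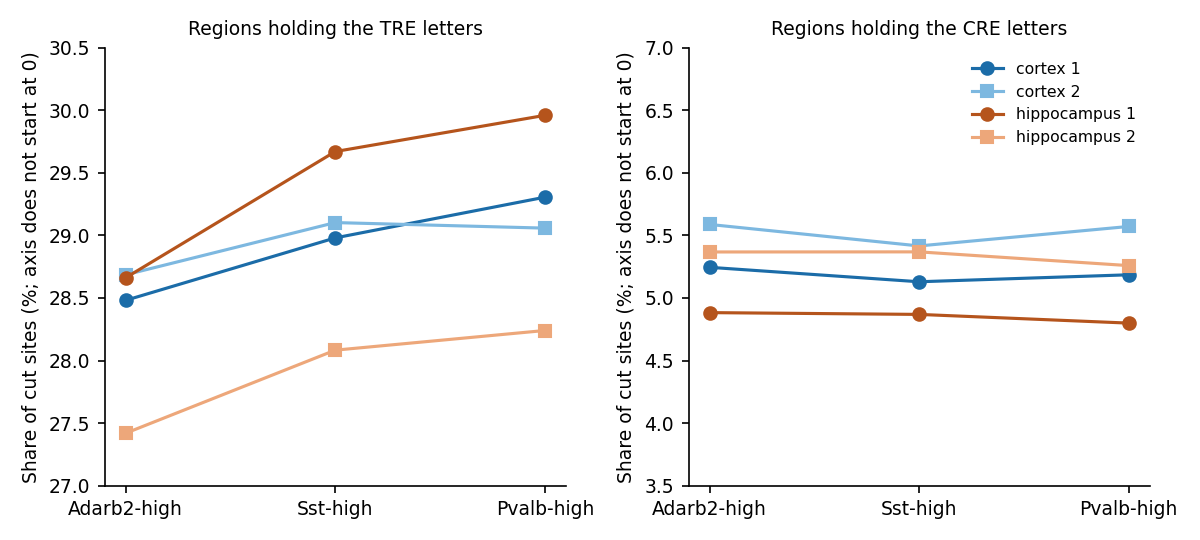
Share of cut sites (%) in regions that hold TRE letters and in regions that hold CRE letters, for Adarb2-high, Sst-high and Pvalb-high nuclei, with a line for each library and the windows of the gate genes left out. The axes do not start at 0; the TRE share of Adarb2-high nuclei is the lowest of the 3 groups in all 4 libraries, by 0.373 to 1.30 points against Pvalb-high nuclei, and the CRE share of Adarb2-high nuclei differs from the other groups by at most 0.172 points.

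Region by region, 12.91% of TRE regions were higher and 8.76% lower in Pvalb-high than in Adarb2-high nuclei, against 7.73% and 9.894% of regions with no TRE. In Sst-high against Adarb2-high nuclei the shares were 13.37% and 8.828% with a TRE and 8.491% and 10.0% without. Regions with CRE letters gave 6.6% higher and 8.519% lower in the first comparison and 6.216% and 6.754% in the second. In Pvalb-high against Sst-high nuclei TRE regions were as often higher (9.458%) as lower (9.415%).

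Cut sites at gene starts moved with the groups too. Regions at starts took 0.91 points less of the cut sites in Pvalb-high and 0.83 points less in Sst-high than in Adarb2-high nuclei, lower in 4 of 4 libraries each, so both kinds of region were counted apart. Away from starts the TRE difference was 1.18 ± 0.50 points for Pvalb-high and 1.17 ± 0.43 for Sst-high nuclei (SD, n = 4 libraries), higher in 4 of 4 libraries. At starts it was 0.29 ± 0.11 points, higher in 4 of 4, and -0.087 ± 0.12 points, higher in 1 of 4. With regions split evenly by length it was higher in 4 of 4 libraries in each class, but smaller in longer regions, at 1.61, 1.03 and 0.615 points for Pvalb-high and 2.00, 1.12 and 0.353 points for Sst-high nuclei in short, middle and long regions.

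Between tissues the motifs could not be separated from the libraries. The summed share of all 29 motifs was 0.891% in cortex 1, 1.21% in cortex 2, 0.910% in hippocampus 1 and 0.865% in hippocampus 2, so cortex 2 stood apart and the other 3 lay together. None of 579 motifs passed (0% called in edgeR, with 1 at an unadjusted p under 0.05, and 0 in DESeq2). The median log2 fold change of the 29 was -0.35 against -0.12 over all motifs and -0.30 over 25 other leucine zipper and SRF motifs, and it ran from -0.66 ± 0.37 for JUND and -0.64 for FOSB::JUN to 0.12 for FOSL1 and 0.51 ± 0.51 for FOSB::JUNB. The FOSB::JUNB value rested on hippocampus 1, where this motif held 0.0575% of counts against 0.0316% for FOSL2::JUNB, while the counts of the 2 motifs were identical in the other libraries; without hippocampus 1 it was -0.27. Both hippocampus libraries lay below both cortex libraries for 5 of 29 motifs (JUND, FOS, FOSL1::JUN, FOSL2::JUN and FOS::JUNB), where 9.5% of all motifs did, and above for none, where 3.63% did. Without cortex 1, 3 of 29 and 100 of 579 motifs passed.

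Whether the group differences of the motifs differed between tissues was tested in the same 12 sums. None of the 29 passed (0.173% of 579 did), though 16 of them were under 0.05 before adjustment in edgeR, as were 61 of all 579. The 29 share counts, so these are not separate signals. DESeq2 called 1 of the 29, and 1 of all 579. For the JUND motif the log2 difference of Pvalb-high from Adarb2-high nuclei was 0.040 and 0.053 in cortex 1 and 2 against 0.27 and 0.30 in hippocampus 1 and 2, and for FOS 0.097 and 0.10 against 0.24 and 0.20. The larger values were in hippocampus for both motifs, in an interaction that did not pass in edgeR.

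Other leucine zipper motifs and SRF were counted the same way. Of the 25 other motifs, 12 were higher in Pvalb-high and 12 in Sst-high than in Adarb2-high nuclei and none lower. Over all 579 motifs 19.5% were higher and 14.7% lower in the first comparison, and 17.8% and 16.9% in the second. NFE2 was at 0.20 in both, MAFK at 0.17 in the first and JDP2, an AP-1 repressor, at 0.17 in the second. The medians of the 25 were 0.020 and 0.025, against 0.071 and 0.11 for the 29 members. The lowest were SRF at -0.03 and JDP2(var.2) at -0.03 in the first comparison and ATF4 and CREB3L1 at -0.04 in the second, none of which passed. In Pvalb-high against Sst-high nuclei MAFK (0.10) and MAFG (0.08) were higher and BATF::JUN (-0.06) lower, and JDP2 was at -0.06 without passing.

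In single nuclei of at least 5000 cut sites the groups overlapped widely. The median share of the 19 TRE-following motifs per nucleus was 0.643%, 0.792%, 0.670% and 0.592% in Pvalb-high nuclei, 0.654%, 0.849%, 0.692% and 0.603% in Sst-high nuclei and 0.615%, 0.767%, 0.616% and 0.545% in Adarb2-high nuclei. The group medians kept the order of the sums in every library. The range from the 5th to the 95th percentile nevertheless ran from 0.502% to 0.798% in Adarb2-high and from 0.537% to 0.955% in Pvalb-high nuclei of hippocampus 1. Over the 12 sums, each centred on its library, the motifs most like the summed members were JDP2 (Pearson's r = 0.97), Tcf12 (0.95), BATF::JUN (0.95), Myog (0.93) and NFE2 (0.92) among 550 others. The windows most like that of Fos were Tmem107 (0.95), Vamp2, Borcs6, Tppp3 and Haus6 (0.94 each) among 18193, the first 3 of which have overlapping windows; these are descriptions over sums that share libraries, with no test.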

How the data were processed

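Single-nucleus ATAC-seq libraries of sorted nuclei from cortex (n = 2) and hippocampus (n = 2) at P30 were analysed. Per the submitters' processing notes, the authors used Cell Ranger ATAC 1.2.0 with GRCm38/mm10; the deposited files hold peaks called in each library separately, counts of cut sites per peak and nucleus and counts per motif and nucleus, neither normalised. The position matrices behind the motif names were not used here. The paper given with the series describes another experiment and served for style only. The 7 genes, the motif names and the gene lists were chosen with earlier results of these data known.

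Cut sites of each library's peaks were summed over nuclei for every protein-coding gene (GENCODE annotation of GRCm38, gene body and 50 kb on either side). They were also summed for 1 kb on either side of each start and for regions merged from the peaks of all libraries (at least 1 bp of overlap). A peak that overlapped a window or start stretch was counted whole, so these values also depend on how wide each library's peaks were called. Library totals were 117290059 and 32005984 cut sites in cortex and 72384520 and 47934269 in hippocampus, with 16.0 to 20.2 motif counts per cut site. A nucleus was Pvalb-high, Sst-high or Adarb2-high when its cut sites in the gene body and 5 kb on either side were at least 2 times those expected from the library's share and its own depth, with a Poisson tail under 0.05 (0.001 in the stricter gate), for that gene only, and when it was not high (3 times, tail under 0.001) in markers of oligodendrocyte-lineage, astrocyte, microglial, endothelial or excitatory cells. Nuclei high in several gate genes were set aside, and doublets were not called otherwise.

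Counts were tested with the quasi-likelihood test of edgeR 4.0.16 (R 4.3.3, robust, TMM scaling, or the total of motif counts for motifs, prior count 2) and Benjamini-Hochberg adjustment over all features, with 4 library sums for tissue and 12 sums with the library as a block for nucleus groups. DESeq2 1.42.0 was an alternative, as were other scalings, gates, windows and depth minimums and each library left out in turn; a lone library left in a tissue was then assumed to vary like the other tissue's libraries. Gene starts, merged regions, TRE and CRE letters and the subtraction of the Pvalb and Sst gate windows were added after seeing the data. In simulated data with log2 changes of 1 or 2 the tests of nucleus groups recovered nearly all of them, whereas the tissue test missed most changes of windows. Smaller changes, such as most of those between nucleus groups reported here, were not simulated. CPM are cut sites scaled to the same total of cut sites in peaks for each library or group, and paired shares were compared by an exact sign-flip permutation test. Named were all 7 genes, the 2 highest and 2 lowest motifs of each comparison, up to 4 called partners by size (some of which are not reported here) and, per gene, the start region and those with the most cut sites; regions that passed were named after their values were seen. Window values of whole libraries rest on 4344 to 45983 cut sites.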

Additional observations from a re-analysis of the deposited data

How the results depend on the processing

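The cause of each change named here was not tested. Depth, the peaks called per library and the number of libraries limit the tissue comparison: cortex 1 is the deepest library, cortex 2 has the fewest peaks, and 2 libraries per tissue leave few degrees of freedom. Replicate numbers do not pair the libraries by any label. With the replicate number as a block, 0 windows, starts, regions or motifs of the members passed between tissues, as without it (the deviations of same-numbered libraries correlated at 0.24 over windows and 0.68 over motifs, from 2 pairs). Without nuclei high in other markers the counts were also 0. DESeq2 called 1 window (Fosl2) and 1 start (Fos) between tissues and 1 motif for the interaction. It also called 3 member regions for Pvalb-high against Sst-high nuclei (8573 of all 46686 regions passed). The stricter gate gave 10 motifs for Pvalb-high against Adarb2-high nuclei (114 of all 579 passed). It gave 0 member regions in both comparisons with Adarb2-high nuclei (1437 and 2045 of all 35367 regions passed). Subtracting the Pvalb and Sst gate windows gave 11 motifs for Pvalb-high against Adarb2-high nuclei (185 of all 579 passed).

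With each library left out in turn, 0 to 1 member windows were called in each comparison with Adarb2-high nuclei. Over all windows 1126 to 2504 were called for Pvalb-high and 1228 to 1840 for Sst-high against Adarb2-high nuclei. Called motifs ran 4 to 18, 14 to 22 and 0 to 9 for Pvalb-high against Adarb2-high, Sst-high against Adarb2-high and Pvalb-high against Sst-high nuclei. Over all 579 motifs 109 to 152, 126 to 167 and 46 to 142 were called in the same order. Member regions called ran 1 to 3, 2 to 5 and 0 to 1 in this order too. Over all regions 4567 to 8073, 5918 to 8251 and 3915 to 6917 were called. Log2 fold changes that changed sign in this way were close to 0 or carried by 1 library. Between tissues they were the windows of Fosl1 (-0.083 to 0.029), Junb (-0.36 to 0.032) and Jund (-0.31 to 0.0048), the starts of Fosb (-1.55 to 0.027) and Jund (-0.26 to 0.070) and the motifs FOSB::JUNB (-0.27 to 1.01) and FOSL1 (-0.0027 to 0.23). For Pvalb-high against Adarb2-high nuclei they were Fos (-0.065 to 0.030), Fosb (-0.040 to 0.010), JUN::JUNB(var.2) (-0.014 to 0.024) and FOSL1::JUND(var.2) (-0.0097 to 0.0054). For Sst-high against Adarb2-high nuclei they were Fosl1 (-0.037 to 0.0050), JUN::JUNB(var.2) (-0.030 to 0.011) and FOSL1::JUND(var.2) (-0.012 to 0.018). For Pvalb-high against Sst-high nuclei they were Fosb (-0.0025 to 0.039), Fosl2 (-0.040 to 0.073), Jund (-0.047 to 0.061) and FOSL1::JUN(var.2) (-0.017 to 0.034).

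Other settings changed the sign of values near 0. The stricter gate gave 0.078 for Fos, 0.086 for Fosb and 0.047 for Fosl2 (Pvalb-high against Adarb2-high), 0.0099 for Fosb, 0.15 for Fosl2 and -0.0089 for FOSL1::JUND(var.2) (Sst-high against Adarb2-high), and -0.11 for Fosl2, -0.088 for Jund and -0.016 for FOSL1::JUN(var.2) (Pvalb-high against Sst-high). Peaks that reached within 1 kb of the start gave 0.34 for Fosl1 and 0.021 for Junb (Sst-high against Adarb2-high). They gave -0.13 for Fos, -0.025 for Fosb, -0.084 for Fosl1 and -0.20 for Junb (Pvalb-high against Sst-high). Nuclei of at least 5000 cut sites gave 0.0039 for Fosl1 (Sst-high against Adarb2-high), -0.0057 for Jund (Pvalb-high against Sst-high), and 0.0012 for JUN::JUNB(var.2) and 0.00069 for FOSL1::JUND(var.2) (Pvalb-high against Adarb2-high). FOSL1::JUND(var.2) in Sst-high against Adarb2-high nuclei was at -0.0024 with DESeq2, -0.0034 with TMM scaling and -0.024 with the gate windows subtracted, which also gave -0.051 for FOSL1::JUN(var.2) and -0.016 for JUN::JUNB(var.2) in Pvalb-high against Sst-high nuclei. Over all alternatives, 462 values of single members kept their direction and side of the threshold, 50 changed sign, 38 no longer passed and 8 newly passed.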

Other observations

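Oligodendrocyte-lineage nuclei differed from their library at several members. Their Jun window was at 238, 214, 154 and 228 CPM in cortex 1, cortex 2, hippocampus 1 and hippocampus 2, and the start of Jun itself at 227, 214, 138 and 219 CPM, above the whole library (115, 164, 84.1 and 132 CPM) in 4 of 4. The Jund start was at 153, 137, 92.7 and 177 CPM, above the whole library in 3 of 4 and just below it in cortex 2. The Fosl2 start went the other way, at 33.8, 69.8, 18.7 and 26.3 CPM, below the whole library in 4 of 4. The share of cut sites in regions with TRE letters was 25.8%, 28.9%, 26.5% and 25.4% in these nuclei, below that of Adarb2-high nuclei in all libraries but cortex 2, and the TRE-following motifs held 0.520%, 0.818%, 0.583% and 0.528% of motif counts. These nuclei were found by their own markers, numbered 73, 60, 441 and 293, and were shallower than other nuclei in 4 of 4 libraries by median cut sites; no test was made.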
